A study of Mus musculus with 4 samples.

Results

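Guanylate-binding proteins (GBPs) and immunity-related GTPases (IRGs) are 2 families of interferon-induced GTPases, and 10 of their genes were chosen by name: Gbp2, Gbp3, Gbp5, Gbp6, Gbp7, Gbp9, Irgm1, Irgm2, Igtp and Iigp1. Each gene was read from 1 probe set, the brightest on average over the arrays among those that the array annotation gives a single gene symbol, and 9 of the 10 genes had one, of 22180 genes tested in all. Gbp2 is listed only on 1 probe set that also carries Gbp2b, so it was not analysed here. The cells were peritoneal macrophages of wild type DBA/2J (DBA) and 129S6/SvEv (129) mice, on a regular chow and 3 months old, which received 1 ml of 4% thioglycollate in the peritoneal cavity and were sampled after 4 days. Cells were kept in culture overnight, and RNA from 3 mice, according to the sample labels, was combined into 1 pool for each strain and sex, while the study's methods give a larger number per pool. The groups are therefore DBA, with a female and a male pool, and 129, with a female and a male pool. Neither the labels nor the methods mention an interferon treatment or an infection.

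Interferon gamma made by T cells and NK cells binds its receptor on macrophages and, through JAK kinases and transcription factors that include IRF1, switches on GBP and IRG genes, while type I interferons reach an overlapping set of genes. GBPs gather on vacuoles and on bacteria inside the cell and help to start inflammasome signalling. The IRGs fall into effectors such as Iigp1, which load onto parasite vacuoles and disrupt them, and regulators of the Irgm group (Irgm1, Irgm2 and Igtp), which sit on the cell's own membranes and hold the effectors in check.

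The values are the authors' log2 expression values, used as deposited. The median over all genes was between 7.65 and 7.70 in the 4 pools, and Pearson's r over all genes was between 0.985 and 0.993 for the 6 pairs of pools, across genes, which are not independent replicates. The lowest r was that of the DBA male and 129 male pools. The summed linear level of all genes was 16282000 and 16924000 in DBA females and DBA males. In 129 females and 129 males it was 16289000 and 15371000. A background reference was set at 7.17, below which lay the means of 95% of 1394 genes for olfactory and vomeronasal receptors. Of the 9 members, 6 had a mean above that level, while Gbp5, Gbp6 and Iigp1 had a mean below it. Of 10 macrophage markers 9 lay above it, and their summed linear level was 59236 and 55833 in DBA females and DBA males, against 51825 and 50303 in 129 females and 129 males. In 8 of the 10 both DBA pools lay above both 129 pools, and in 2 both lay below. In pooled bulk RNA, fewer cells of a type and less RNA per cell cannot be told apart. In 7 of 9 measured B cell markers both DBA pools lay above both 129 pools, with the DBA female pool highest. Over all genes 23% had both DBA pools above both 129 pools, and 21.4% had both below. Of the 7, Ms4a1 had log2 values of 10.44 and 9.04 in DBA females and DBA males and of 8.08 and 7.90 in 129 females and 129 males. Cd22 ran the other way, with 9.68 and 8.55 in the DBA pools and 11.03 and 10.88 in the 129 pools, and both genes are named after their values were seen. The summed linear level of the 9 markers, Cd22 included, was 10117 and 4762 in the DBA pools, against 5391 and 4833 in the 129 pools.

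The promoters of the members show what they share apart from expression. A pair of motifs was searched on both strands of RefSeq promoter windows (GRCm38.p6) that run from 250 bases before to 50 bases after a gene's start: the core of the interferon-stimulated response element (ISRE), spelled GAAA, 2 bases of any kind and GAAA again, and that of the gamma-activated site (GAS), written as TTCNNNGAA. Of the 10 members, 7 had a window that was counted, and no window of Gbp6, Gbp9 or Iigp1 was counted. The same held for the other GBP and IRG genes on the chromosomes of Gbp6, Gbp9 and Iigp1. The motif counts therefore do not cover these genes, and whether their promoters hold the cores was not tested. All 7 held the ISRE core, which 3.44% of 32851 windows held, and 4 of the 7 (Gbp5, Gbp7, Igtp and Irgm2) also held the GAS core, which 8.3% of all windows held. Both cores stood in 0.454% of all windows. The windows of 6 genes are given here because their expression is followed below, with matches in capitals. A match to these letters is a description and not a site shown to be bound.
Irgm2 promoter, chr11:58214727-58215026, GRCm38.p6, plus strand: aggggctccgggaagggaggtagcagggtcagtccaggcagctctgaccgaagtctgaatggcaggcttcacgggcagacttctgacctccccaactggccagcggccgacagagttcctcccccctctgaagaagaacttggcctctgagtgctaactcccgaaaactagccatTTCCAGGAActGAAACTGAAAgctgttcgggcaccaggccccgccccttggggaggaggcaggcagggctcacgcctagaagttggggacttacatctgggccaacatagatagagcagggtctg
Igtp promoter, chr11:58199306-58199605, GRCm38.p6, plus strand: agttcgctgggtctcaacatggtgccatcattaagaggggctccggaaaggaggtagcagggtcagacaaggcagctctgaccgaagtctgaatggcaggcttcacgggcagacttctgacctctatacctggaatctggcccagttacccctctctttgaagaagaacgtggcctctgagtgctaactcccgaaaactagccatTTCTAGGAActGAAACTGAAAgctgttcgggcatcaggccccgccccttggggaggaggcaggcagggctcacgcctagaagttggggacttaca
Irgm1 promoter, chr11:48871371-48871670, GRCm38.p6, minus strand: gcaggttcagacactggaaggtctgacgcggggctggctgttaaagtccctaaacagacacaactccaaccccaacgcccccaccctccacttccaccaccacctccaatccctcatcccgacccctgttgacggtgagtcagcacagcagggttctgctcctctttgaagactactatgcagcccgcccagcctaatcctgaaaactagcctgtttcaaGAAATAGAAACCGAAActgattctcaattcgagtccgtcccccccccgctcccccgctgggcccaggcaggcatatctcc
Gbp7 promoter, chr3:142530086-142530385, GRCm38.p6, plus strand: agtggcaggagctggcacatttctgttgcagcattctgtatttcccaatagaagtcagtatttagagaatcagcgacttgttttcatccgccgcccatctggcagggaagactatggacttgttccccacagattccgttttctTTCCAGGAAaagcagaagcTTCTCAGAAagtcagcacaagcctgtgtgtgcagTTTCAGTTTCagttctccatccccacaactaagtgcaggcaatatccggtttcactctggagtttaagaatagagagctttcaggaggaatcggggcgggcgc
Gbp3 promoter, chr3:142559794-142560093, GRCm38.p6, plus strand: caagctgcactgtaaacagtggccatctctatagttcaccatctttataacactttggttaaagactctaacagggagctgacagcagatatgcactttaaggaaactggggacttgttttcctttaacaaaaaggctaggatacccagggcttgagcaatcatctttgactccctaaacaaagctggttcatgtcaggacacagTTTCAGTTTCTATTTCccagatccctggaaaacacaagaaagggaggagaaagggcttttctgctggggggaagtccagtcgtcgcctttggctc
Gbp2b promoter, chr3:142594597-142594896, GRCm38.p6, plus strand: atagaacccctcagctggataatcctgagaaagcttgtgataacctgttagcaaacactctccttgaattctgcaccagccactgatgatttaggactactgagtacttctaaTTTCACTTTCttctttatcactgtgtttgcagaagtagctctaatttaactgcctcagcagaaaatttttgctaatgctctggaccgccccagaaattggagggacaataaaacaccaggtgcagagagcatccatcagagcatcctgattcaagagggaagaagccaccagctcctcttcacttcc
In Irgm2 and Igtp, which are neighbours on chromosome 11, the GAS core is followed after a pair of bases by the ISRE core, at positions -75 to -67 and -64 to -55 from the gene start in Irgm2 and at -45 to -37 and -34 to -25 in Igtp. The same layout stood in Tgtp1, Tgtp2 and Gm12185, which are IRG genes outside the 10. Of 9 other IRG genes with a counted window, 5 held the ISRE core and 4 held both cores. Irgm1 held 2 overlapping ISRE cores and no GAS core. Gbp7 held 2 GAS cores and 1 ISRE core on the other strand. Gbp3 had 2 windows, and in the one shown 2 overlapping ISRE cores stood on the other strand. Gbp2b, a GBP gene outside the 10, held 1 ISRE core and no GAS core.

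**Figure D1:**
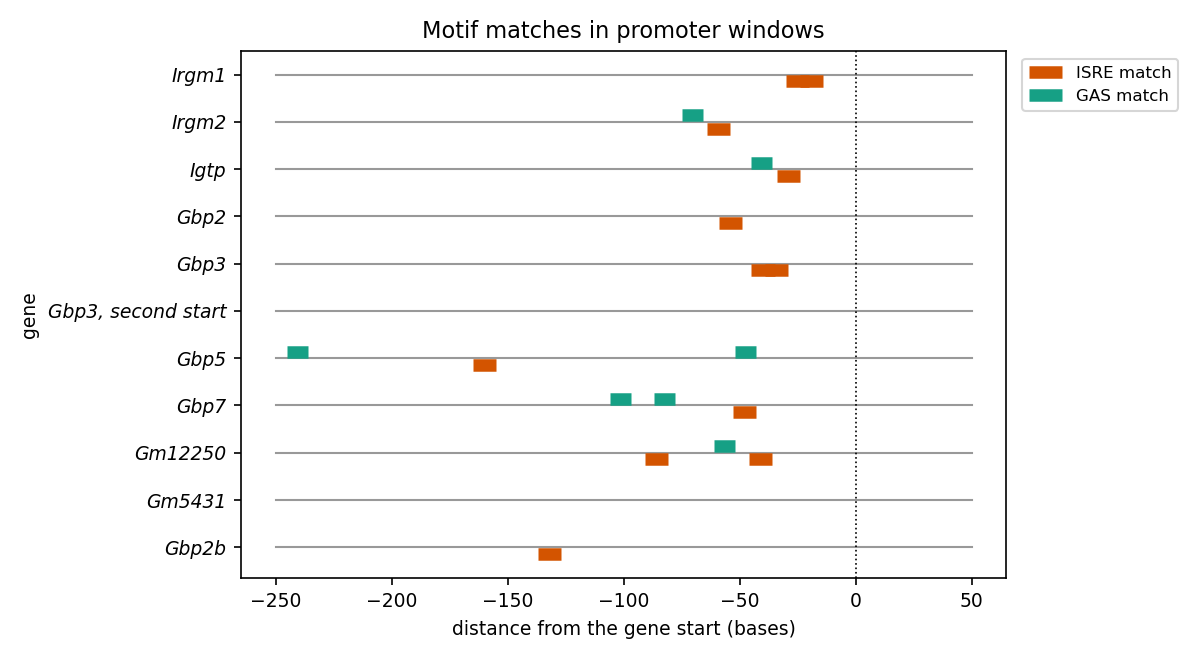
Positions of ISRE (orange) and GAS (green) core matches in promoter windows of the 7 members with a counted window and of Gm12250, Gm5431 and Gbp2b; the x axis is the distance from the gene start in bases and each row is 1 window. Every member shown has an ISRE match in at least 1 window, and the second window of Gbp3 and the window of Gm5431 have none.

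None of the 9 measured members passed the test between DBA and 129 macrophages, but 8 of them had the same order of the pools at its ends, with the DBA male pool highest and the 129 male pool lowest. For the 7 members other than Gbp6 and Gbp9 the strain difference in the male pools was between 0.64 and 0.80 on the log2 scale. That is a 1.56- to 1.75-fold higher level in DBA, and in the female pools the difference was between -0.17 and 0.09. Among the 7, Gbp5 and Iigp1 had means below the background reference, so the size of their fold is not settled. Gbp6, also below it, had differences of 0.25 in the male pools and 0.07 in the female pools. Gbp9 ran the other way, with both DBA pools below both 129 pools. Strain differences were tested with limma, with 2 replicates per strain, its pools of either sex, and a gene passed at an adjusted p under 0.05 (Benjamini-Hochberg, all 22180 genes). Over all genes 0.216% were called higher and 0.158% lower in DBA. The adjusted p of the members lay between 0.39 and 0.69. At an unadjusted p under 0.05 none of the 9 was higher, where 6.44% of all genes were, and 1, Gbp9, was lower, where 5.08% of all genes were. An exact permutation test of 2 pools against 2 cannot give a p below 0.333.

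**Figure D2:**
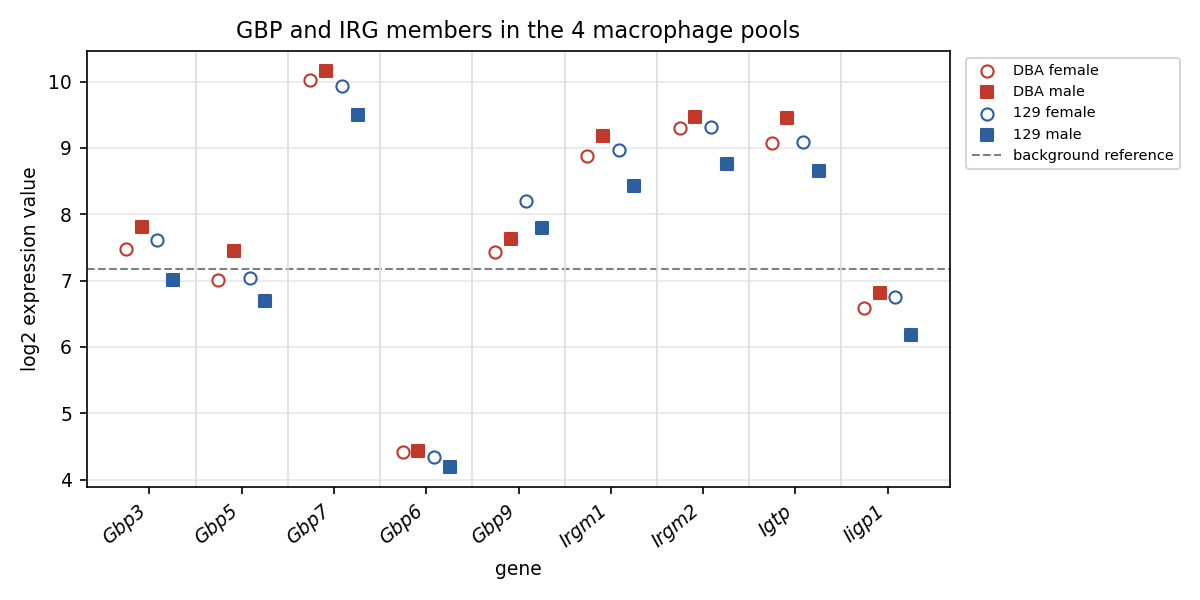
Log2 expression values (y axis) of the 9 measured members (x axis) in each pool, with DBA pools in red and 129 pools in blue, females as open circles and males as filled squares; the dashed line is the background reference of 7.17. In 8 of 9 genes the 129 male pool is the lowest and the DBA male pool the highest, and in Gbp9 both DBA pools lie below both 129 pools.

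Among the regulatory IRGs, Irgm2 (probe set 17249990), which holds back caspase-11 activation, had log2 values of 9.30 and 9.47 in DBA females and DBA males and of 9.31 and 8.76 in 129 females and 129 males. The 129 male pool lay below the other pools, which were close together. Its log2 difference was 0.35 (standard error 0.20, 95% interval -0.14 to 0.85, adjusted p = 0.55, limma), a ratio of 1.26 between the mean linear levels. Igtp (probe set 17249980), found on the endoplasmic reticulum and lipid droplets, had values of 9.07 and 9.45 in the DBA pools and of 9.09 and 8.65 in the 129 pools. The 2 female pools were almost level and the male pools lay on either side of them, with a log2 difference of 0.39 ± 0.20 (SE; adjusted p = 0.51, limma). Irgm1 (probe set 17262202), which protects against mycobacteria and is needed for normal autophagy in macrophages, had values of 8.87 and 9.18 in the DBA pools and of 8.97 and 8.42 in the 129 pools. The strains overlapped in all 3 genes, and the log2 difference of Irgm1 was 0.33 (standard error 0.21, adjusted p = 0.58, limma).

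Iigp1 (probe set 17350925, chromosome 18), the effector that coats parasite vacuoles, had values of 6.58 and 6.81 in DBA females and DBA males and of 6.75 and 6.18 in 129 females and 129 males. All 4 values lay below the background reference, so a low level of this transcript cannot be separated from background here. Its log2 difference was 0.23 (standard error 0.21, adjusted p = 0.69, limma), and the order of its pools was that of the Irgm genes.

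Of the GBPs, Gbp7 (probe set 17403224), which is linked to the oxidative killing of bacteria, had values of 10.03 and 10.17 in DBA females and DBA males and of 9.94 and 9.50 in 129 females and 129 males. Both DBA pools lay above both 129 pools, but the female pools differed by only 0.09. Its log2 difference of 0.38 (standard error 0.17, 95% interval -0.05 to 0.80) did not pass (adjusted p = 0.47, limma). Gbp3 (probe set 17403237) had values of 7.48 and 7.81 in the DBA pools and of 7.61 and 7.01 in the 129 pools, with a log2 difference of 0.34 ± 0.23 (SE; adjusted p = 0.60, limma). Gbp5 (probe set 17403205), which promotes assembly of the NLRP3 inflammasome, had values of 7.02 and 7.44 in the DBA pools and of 7.03 and 6.70 in the 129 pools. In both genes the female pools were near each other, the DBA male pool was above them and the 129 male pool was below them. For Gbp5 3 of the 4 values lay below the background reference, and its log2 difference was 0.36 (standard error 0.19, adjusted p = 0.52, limma).

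Gbp6 and Gbp9 belong to a GBP cluster on chromosome 5, whereas Gbp3, Gbp5 and Gbp7 stand next to each other on chromosome 3. Gbp9 (probe set 17450448) had values of 7.43 and 7.62 in DBA females and DBA males and of 8.20 and 7.79 in 129 females and 129 males. Both DBA pools were below both 129 pools, with a ratio of 0.719. Its log2 difference was -0.46 (standard error 0.17, unadjusted p = 0.036, adjusted p = 0.39, limma), which did not pass over all genes. Gbp6 (probe set 17450477) had values of 4.41 and 4.44 in the DBA pools and of 4.35 and 4.19 in the 129 pools, all far below the background reference. Gbp6 has close relatives in the same cluster, so its low value on this array remains uncertain. Pools of the strains did not overlap in 3 of the 9 members (Gbp6, Gbp7 and Gbp9), 2 with DBA above and 1 with DBA below, where 44.4% of all genes had such pools, 23% with DBA above and 21.4% with DBA below.

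**Figure D3:**
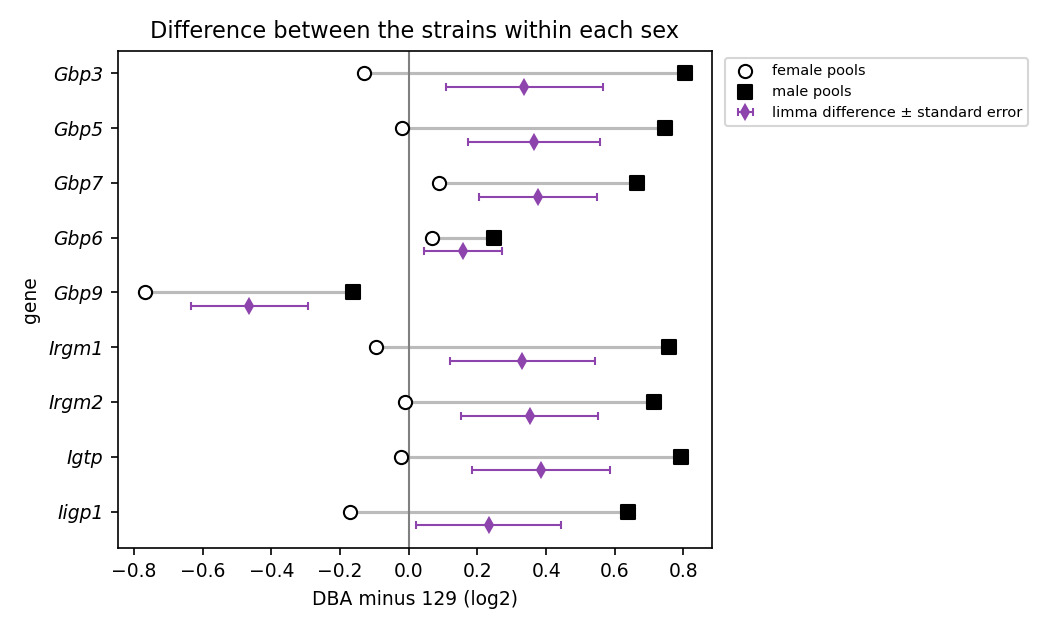
DBA minus 129 difference on the log2 scale (x axis) of each member (rows), with the female pools as open circles, the male pools as filled squares and the limma difference over both sexes as purple diamonds with its standard error; each circle or square is 1 pool against 1 pool. For the 7 members other than Gbp6 and Gbp9 the male difference lies between 0.64 and 0.80 and the female difference between -0.17 and 0.09.

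The order of the pools was compared with that of all genes. The DBA male pool was highest in 8 of 9 members and in 34.6% of all genes, and the 129 male pool was lowest in 8 of 9 members and in 36% of all genes. In all 9 members the male pool was above the female pool in DBA and below it in 129, as in 40.3% of all genes. The 2 extremes held together in 8 of 9 members and in 21.6% of all genes. Among genes above the background reference they held together in 5 of 6 members and in 30.6% of the genes, where the DBA male pool was highest in 43.6% and the 129 male pool lowest in 46.1%. DBA was above 129 in the male pools of 8 members, where 56.2% of all genes had that order, and in the female pools of 2 members, where 44.1% had. The 129 male pool was at least 0.4 below the 129 female pool in 7 members and in 5.51% of all genes, and the DBA male pool was at least 0.5 above the 129 male pool in 7 members and in 9.08% of all genes. Both limits were set after the values were seen, and the counts describe these 4 pools. The median log2 difference between DBA and 129 over the members was 0.34, against 0.0045 over all genes, and it was 0.71 in the male pools and -0.02 in the female pools. Without the 129 male pool the median was 0.08, and without the DBA male pool it was 0.17. It was 0.60 without the 129 female pool and 0.45 without the DBA female pool, and none of the 9 members passed in any of these fits (limma).

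Female and male pools were also compared with strain in the model. None of the 9 members passed in either direction (limma, adjusted p = 1 for each), where 0.018% of all genes were called, and none had an unadjusted p under 0.05, where 1.73% of all genes had. The female minus male differences lay between -0.04 and 0.19. The median of male minus female over the members was 0.23 in DBA and -0.44 in 129. The signs were opposite in all 9, so the average over the strains used in this test could not show a sex difference within 1 strain. The interaction between sex and strain was not tested, since 4 pools have no degree of freedom left for it, and with 1 pool per strain and sex a difference of the male 129 mice cannot be told apart from a difference of that single pool.

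Outside the 10 genes, Gbp2b, Gbp11, Gm5431, Gm12250, Gm4951 and F830016B08Rik had log2 differences between the strains larger in size than those of the 9 members. None of them passed, and Gbp2b was lower in DBA while the others were higher. Of 5 measured other GBP genes none was called higher or lower, and of 9 measured other IRG genes none was called higher or lower (limma). Unadjusted, a p under 0.05 was found for 2 GBP genes, 1 in each direction, and for 4 IRG genes, all with DBA above. Over all genes 6.44% had such a p (limma) with DBA above and 5.08% with DBA below. Gbp2b (probe set 17403255), the gene next to Gbp3 that was earlier named Gbp1, had log2 values of 6.65 and 6.25 in DBA females and DBA males and of 8.74 and 7.73 in 129 females and 129 males. Both DBA pools lay below the background reference and both 129 pools above it. With DBA at background the size of the difference is not settled, and it did not pass (adjusted p = 0.17, limma, between 0.057 and 0.51 over its alternatives). Gbp2b, Gbp2 and their neighbours are similar in sequence, and the array has a probe set that names both Gbp2b and Gbp2, so the assignment of this signal remains uncertain. Gbp11, in the chromosome 5 cluster, had 5.46 and 5.56 in the DBA pools and 4.77 and 4.69 in the 129 pools, with all pools below the background reference and an adjusted p of 0.080 (limma). Gbp10 had a log2 difference of -0.04, Gbp4 one of 0.02 and Gbp8 one of -0.37, with adjusted p of 0.96, 0.97 and 0.46 (limma).

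Of the other IRG genes, Gm5431 (probe set 17262209), next to Irgm1 among the listed genes of chromosome 11, had values of 10.26 and 10.31 in DBA females and DBA males and of 9.67 and 8.71 in 129 females and 129 males. Both DBA pools were above both 129 pools in males and females alike, with a ratio of 2.02 and a log2 difference of 1.09 ± 0.30 (SE; adjusted p = 0.29, limma). Without the 129 male pool the difference of Gm5431 was 0.61. The promoter window of this gene held neither motif. Gm12250, next to Igtp, had values of 8.69 and 9.12 in the DBA pools and of 8.60 and 7.40 in the 129 pools. Like the members it had its lowest value in the 129 male pool and its highest in the DBA male pool, and its log2 difference was 0.91 (standard error 0.39, adjusted p = 0.45, limma), or 0.31 without the 129 male pool. On chromosome 18, Gm4951 had 8.71 and 8.12 in the DBA pools and 7.94 and 7.36 in the 129 pools, and F830016B08Rik had 7.13 and 6.59 in the DBA pools and 5.99 and 6.20 in the 129 pools. In these 2 genes the DBA female pool was highest, unlike in the members, and their adjusted p was 0.37 and 0.27 (limma). The 2 pools of each strain were almost level in 9930111J21Rik2, with 11.19 and 11.21 in DBA and 10.92 and 10.92 in 129, a log2 difference of 0.28 ± 0.10 (SE; adjusted p = 0.39, limma). The remaining genes, Gm4841, Gm12185, Irgc1 and Irgq, had log2 differences of 0.03, 0.06, -0.30 and 0.12.

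**Figure D4:**
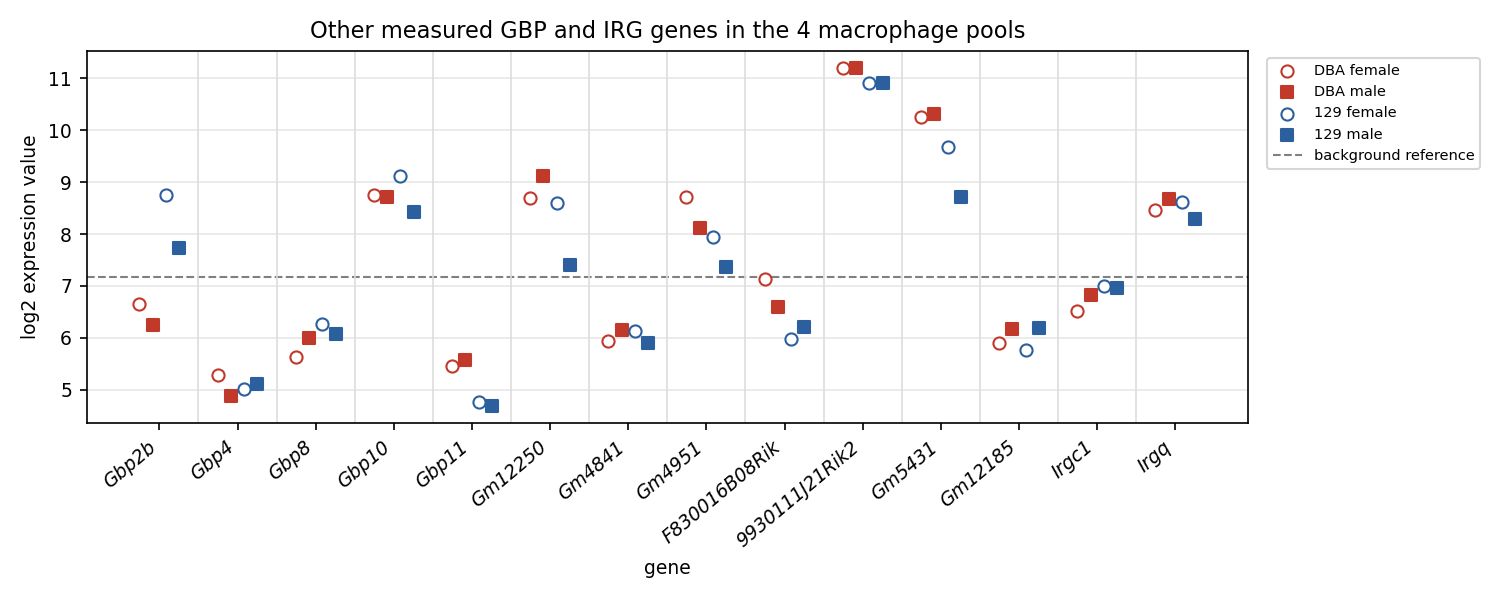
Log2 expression values (y axis) of 14 other measured GBP and IRG genes (x axis) in each pool, with DBA pools in red and 129 pools in blue, females as open circles and males as filled squares, and the background reference of 7.17 dashed. Both DBA pools lie below both 129 pools in Gbp2b, Gbp8 and Irgc1, and above both in Gm5431, Gm12250, Gm4951, F830016B08Rik, 9930111J21Rik2 and Gbp11.

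At the head of the pathway, Ifng had values of 7.19 and 7.00 in DBA females and DBA males and of 7.16 and 7.14 in 129 females and 129 males, all close to the background reference. The receptor genes Ifngr1 and Ifngr2 had log2 differences of 0.29 and -0.02, and the kinase genes Jak1 and Jak2 of 0.10 and 0.35. Irf1, which encodes a transcription factor of the response, had values of 10.06 and 9.94 in the DBA pools and of 9.95 and 9.42 in the 129 pools, so that the 129 male pool was again lowest. The factor genes Irf8, Irf9 and Stat2 had log2 differences of 0.07, 0.22 and -0.01, and Ciita, the master regulator of MHC class II, one of 0.44 with its highest value of 9.90 in the DBA female pool. Of 15 measured genes of interferon gamma signalling none passed in either direction (limma). Unadjusted, 2 had a p under 0.05 with DBA above 129 and none with DBA below, where 6.44% and 5.08% of all genes had. The median log2 difference was 0.21. Of 9 measured genes of type I interferon signalling none passed (limma), again 2 had an unadjusted p under 0.05 with DBA above and none with DBA below, and the median was 0.22. The 129 male pool was lowest in 13 of the 15 and in 7 of the 9, against 36% of all genes. Above the background reference, where 14 of the 15 and 8 of the 9 lay, the share was 46.1%. This pool was also lowest in 16 of 21 vacuole and inflammasome partners of the GTPases, 7 of 10 macrophage markers, 7 of 9 B cell markers and 4 of 5 mast cell markers. In T cell, NK, neutrophil and dendritic cell markers it was lowest in 2 of 6, 2 of 8, 3 of 9 and 1 of 7.

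Other interferon gamma-induced effectors, among them chemokines, immunoproteasome subunits and peptide transporters, had 20 measured genes, of which none passed (limma). An unadjusted p under 0.05 was found for 2 with DBA above and 1 with DBA below, where 6.44% and 5.08% of all genes had one. In 19 of the 20 the 129 male pool was below the 129 female pool, where 60.2% of all genes had that order, and in 12 of the 20 the DBA male pool was above the DBA female pool, where 58% had. The median of male minus female was 0.07 in DBA and -0.33 in 129, and over all genes it was 0.04 in DBA and -0.05 in 129. Named here after their values were seen, Usp18, a brake on type I interferon signalling, had values of 10.74 and 11.20 in DBA females and DBA males and of 11.23 and 9.87 in 129 females and 129 males, and Irf7 had 11.32 and 11.53 in the DBA pools and 11.72 and 10.48 in the 129 pools. Acod1, which makes itaconate, had 11.53 and 12.07 in the DBA pools and 11.85 and 10.56 in the 129 pools, and the chemokine gene Ccl5 had 11.30 and 10.85 in the DBA pools and 11.66 and 10.21 in the 129 pools. The 129 female pool was highest in Usp18, Irf7 and Ccl5, unlike in the members other than Gbp9. Over the 20 effectors the 129 male pool was lowest in 14, against 36% of all genes and 46.1% of those above the background reference. The strain differences of Usp18, Irf7, Acod1 and Ccl5, of 0.42, 0.32, 0.59 and 0.14, did not pass (limma).

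**Figure D5:**
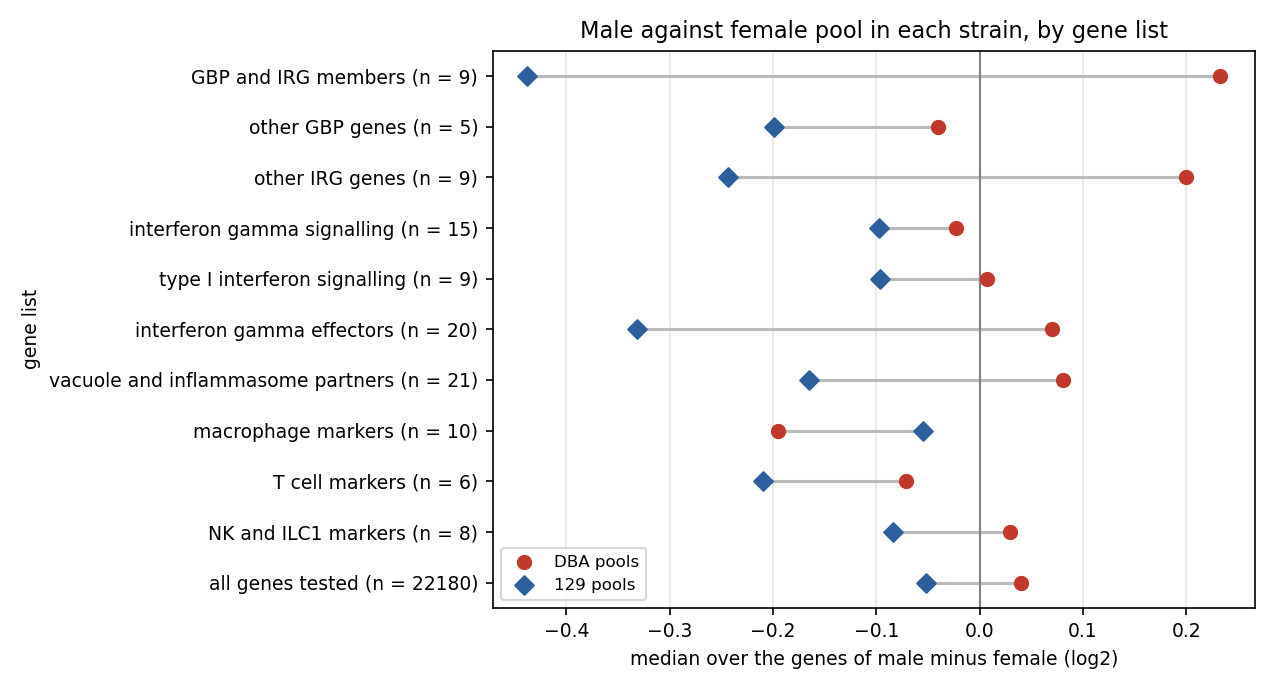
Median over the genes of a list of the male minus female difference on the log2 scale (x axis), with DBA pools as red circles and 129 pools as blue diamonds and 1 row per gene list with its number of measured genes. The members have medians of 0.23 in DBA and -0.44 in 129, all genes 0.04 and -0.05, and the other interferon gamma effectors 0.07 and -0.33.

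Of 21 measured partners of these GTPases on vacuoles and in inflammasomes, 1 was higher in DBA, none was lower and 20 did not pass (limma), with a median log2 difference of 0.12. The gene that rose was Casp4, which encodes caspase-11, the sensor of cytosolic lipopolysaccharide that GBPs help to activate. It had values of 9.99 and 10.09 in DBA females and DBA males and of 8.25 and 8.30 in 129 females and 129 males, a ratio of 3.40 and a log2 difference of 1.77 ± 0.11 (SE; adjusted p = 0.010, limma). Unlike in the members, the sexes were close in both strains. Casp4 missed the threshold without 129 females (adjusted p = 0.064), without 129 males (adjusted p = 0.081) or when every probe set was tested (adjusted p = 0.16, limma).

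Markers of the cells that make interferon gamma were low in all pools. Of 6 measured T cell markers 3 and of 8 NK and innate lymphoid cell markers 2 lay above the background reference, and none passed in either direction (limma). An unadjusted p under 0.05 was found for 1 T cell marker with DBA above and for 2 NK markers, 1 in each direction. Over all genes 6.44% had such a p with DBA above and 5.08% with DBA below. The summed linear level of the T cell markers was 911 and 810 in DBA females and DBA males, against 935 and 827 in 129 females and 129 males, and that of the NK markers was 838 and 808, against 833 and 820. Of 9 measured B cell markers none passed (limma), and 6 with DBA above and 1 with DBA below had an unadjusted p under 0.05. Their sum was highest in the DBA female pool. Of 9 neutrophil markers none passed, with sums of 7284 and 5613 in the DBA pools and of 5026 and 4667 in the 129 pools. Most of each sum came from Csf3r, and 4 of the 9 lay above the background reference. An unadjusted p under 0.05 with DBA above was found for 3 neutrophil markers and none with DBA below (limma). Of 10 macrophage markers none passed, and 5 with DBA above and 1 with DBA below had such a p (limma). Of 7 dendritic cell markers 1, Itgax, was lower (log2 difference -1.72, standard error 0.10, adjusted p = 0.010, limma), and of 5 mast cell markers 1, Mcpt4, was higher (adjusted p = 0.024, limma). Mcpt4 had 7.49 and 7.90 in the DBA pools and 5.82 and 5.96 in the 129 pools, and since the 129 pools lay below the background reference no size is given for its difference. Neither Itgax nor Mcpt4 passed without the 129 female or the 129 male pool. The sum of the mast cell markers was 2239 and 2329 in the DBA pools and 2280 and 1666 in the 129 pools. It was lowest in the 129 male pool, as were the sums of the macrophage and neutrophil markers and of all genes. The sums of the B cell, T cell, NK and dendritic cell markers were lowest in the DBA male pool. The B cell sum includes Cd22, with 8.55 in DBA males and 10.88 in 129 males. Of the 9 B cell markers, 7 had their lowest value in the 129 male pool. Itgax was the brightest dendritic cell marker in each pool. The part of any of these cells in the levels of the members was not tested.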

How the data were processed

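RNA of 4 macrophage pools was hybridised to 4 Affymetrix Mouse Gene 2.0 ST arrays, 1 per strain and sex. The authors processed the arrays in Affymetrix Expression Console and deposited log2 expression values. The sources used here do not give its version, its summarisation or how background was corrected. The values were used without further normalization, and 0 other value columns were present. Of 41345 probe sets, 23521 carried 1 gene symbol in the platform annotation, and the probe set with the highest mean stood for each of 22180 genes. Sequence differences between the strains under single probes were not examined, since probe-level values were not used here.

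DBA was compared with 129 in limma 3.58.1 (R 4.3.3; lmFit and eBayes, strain only, 2 residual and 3.73 prior degrees of freedom) with Benjamini-Hochberg adjustment. Each strain's replicates are its female and male pool, so the spread includes sex, and p-values measure only the spread between these pools. The number of arrays limits the precision. Members and gene lists were chosen with earlier results of these data known. Named were all members, the other measured GBP, IRG, GVIN and Mx genes, fixed genes at the head of the pathway, up to 4 genes of a list past the test, and the 5 genes above the background reference with the nearest centred profile. Usp18, Irf7, Acod1, Ccl5, Ms4a1 and Cd22 fall outside this rule and were chosen after their values were seen. The alternatives left out each pool in turn, blocked on sex, scaled by quantiles or to a common median, used a robust prior with a trend, removed dim genes, averaged the probe sets of a gene or tested every probe set. The test was checked on simulated data.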

Additional observations from a re-analysis of the deposited data

Results flagged for a closer look

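The male minus female difference had opposite signs in DBA and 129 in all 9 measured members, positive in DBA and negative in 129, which also held in one sign order or the other in 62.5% of all genes. The difference between the strains in this quantity, DBA less 129 on the log2 scale, was 0.93 for Gbp3, 0.85 for Irgm1, 0.82 for Igtp, 0.81 for Iigp1, 0.77 for Gbp5, 0.72 for Irgm2, 0.61 for Gbp9, 0.58 for Gbp7 and 0.18 for Gbp6. Its median was 0.77 over the members and 0.087 over all genes. The difference was not tested, since each strain and sex has 1 pool.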

How the results depend on the processing

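None of the members tested was called higher or lower under any of the 11 alternatives (limma), of which 10 tested all 9 and the removal of dim genes tested 6. Their median log2 difference of 0.34 lay between 0.076 and 0.60 when 1 pool was left out, lowest without the 129 male pool. Where a strain was left with 1 pool, that pool was assumed to vary like the pools of the other strain. Casp4, Itgax and Mcpt4 lost their calls when every probe set was tested (adjusted p = 0.16, 0.16 and 0.24, limma) and without either 129 pool. Leaving out 1 pool turned the sign of some differences that were not called, with ranges of -0.055 to 0.52 for Iigp1, -0.18 to 0.22 for Gbp4, -0.40 to 0.31 for Gbp10, -0.092 to 0.15 for Gm4841, -0.15 to 0.27 for Gm12185 and -0.047 to 0.28 for Irgq. The ranges were -0.29 to 0.94 for Irf7, -0.26 to 1.10 for Usp18, -0.59 to 0.86 for Ccl5 and -0.058 to 1.24 for Acod1. Over all genes 83 were called, against 47 with sex as a block, 129 with a trended and robust prior, 101 with quantile scaling, 101 with a common median and 0 with every probe set tested. Without 1 pool the count lay between 6 and 186.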

Other observations

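The Mx genes, which encode antiviral GTPases of another interferon-induced family, had the pool order of the members. Mx2 had log2 values of 7.17 and 7.32 in DBA females and DBA males and of 7.24 and 6.62 in 129 females and 129 males, and Mx1 had 6.62 and 6.84 in the DBA pools and 6.63 and 6.27 in the 129 pools, below the background reference. The mean of Mx2 over the pools, 7.09, also lay below that reference. In both genes the DBA male pool was highest and the 129 male pool lowest, and their adjusted p was 0.60 and 0.56 (limma). The GVIN genes Gm8995 and Gm1966 had log2 differences of 0.05 and -0.42 (adjusted p = 0.88 and 0.37, limma). Of 12463 candidate genes, the 5 with a centred profile over the 4 pools nearest to the members' mean profile were Nfkbia, Tmem115, Plrg1, Orm1 and Efna2, at distances between 0.0201 and 0.0337 on the log2 scale. Nfkbia, which encodes an inhibitor of NF-kappa B, had 11.45 and 11.67 in the DBA pools and 11.57 and 11.10 in the 129 pools. A likeness over 4 pools is a description of these pools.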
